A study of Mus musculus with 8 samples.

Results

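The 10 genes described here, Glul, Rhbg, Slc1a2, Lgr5, Rnf43, Znrf3, Axin2, Nkd1, Sp5 and Tbx3, are targets of Wnt signalling in the hepatocytes that surround the central vein. They were chosen by symbol as a pathway set, and all 10 were measured, among 24921 genes or transcripts that passed the filter on dim probes. RNA came from snap-frozen livers of 8 female B6C3F1 mice, bought at 5 to 6 weeks of age and given at least 7 days to settle, and each liver was measured on 1 array of the same Agilent slide. Furan livers (4 animals, replicates 41, 42, 43 and 44) came from mice gavaged for 21 days with 8 mg of furan per kg of body weight, dissolved in corn oil. Vehicle livers (4 animals, replicates 2, 3, 4 and 6) came from mice gavaged with the oil only. Collection was 4 hours past the final dose in both groups, and lower furan doses were not analysed here. Furan is a small volatile compound formed in heated food that is toxic and carcinogenic in rodent liver, where the cytochrome P450 enzyme Cyp2e1, itself a pericentral protein, converts it to a reactive dialdehyde.

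Hepatocytes differ in their tasks along the path of blood from the portal tract to the central vein. Endothelial cells of the central vein secrete Wnt ligands and R-spondin 3, which stabilise beta-catenin in the neighbouring hepatocytes, and beta-catenin with T-cell factors then switches on the pericentral genes. The targets include enzymes and transporters that scavenge ammonia and glutamate, receptors and ubiquitin ligases that tune the Wnt signal itself, and feedback inhibitors. The comparison asked whether this programme differed after 3 weeks of furan. The arrays measured whole liver, so fewer pericentral cells and less RNA per cell cannot be told apart.

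No gene of the 10 passed the test. In limma with Benjamini-Hochberg adjustment over all 24921 features, 0 of 10 were past an adjusted p of 0.05, where 4.18% of all features were, 2.87% higher and 1.31% lower with furan. At an unadjusted p of 0.05, 1 of the 10 passed, Rhbg, against 23.8% of all features in either direction and 11.5% of them lower. The lowest adjusted p of the 10 was 0.147 and the highest 0.806. All 10 estimates were below 0 in this scaling, from -0.10 to -0.96 with a median of -0.20, while with each array shifted to its median only 1 of 10 was. The estimate of -0.96 was that of Axin2, whose probe passed the filter only through the vehicle arrays. Of all features 60.2% were below 0, with a median log2 fold change of -0.092. Each level below is a log2 processed intensity minus the 75th percentile of its array, and a change is the furan mean minus the vehicle mean. Levels of different probes are not comparable with each other.

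**Figure D1:**
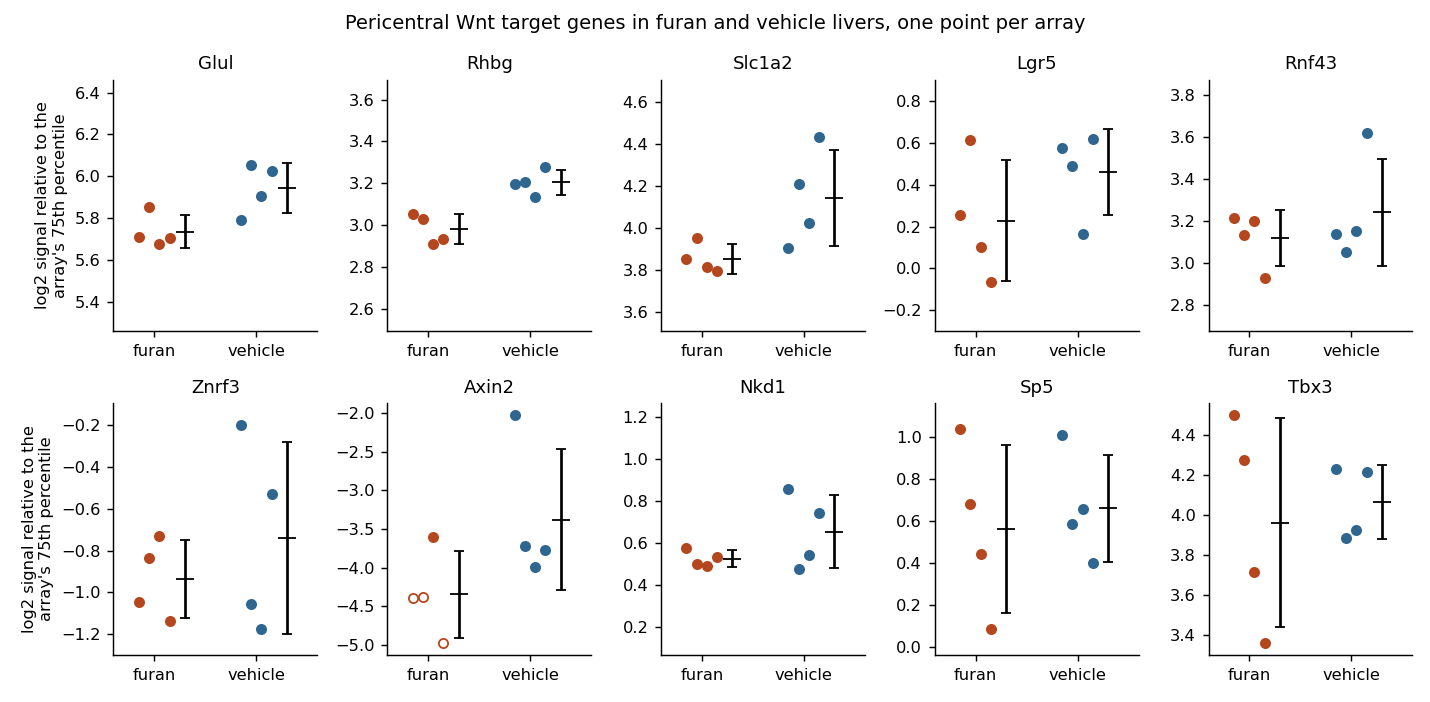
Log2 signal relative to the array's 75th percentile for each of the 10 genes, 1 point per array, with furan at the left and vehicle at the right of each panel, each panel on its own axis. Bars are means ± SD (n = 4 arrays), and open points are arrays on which the probe was not well above background. The groups overlap in every panel except that of Rhbg.

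The arrays were checked before the groups were compared. Between 55.1% and 86.2% of probe spots were well above background, and the highest share was on the array of vehicle replicate 2. This array also gave the highest values of several dim probes below, and the Axin2, Nkd1, Znrf3 and Wnt2 results are given with and without it. Pairs of arrays correlated at 0.899 to 0.986 across probes, and no 2 arrays were identical. Hepatocyte markers such as albumin averaged 8.85 to 8.98 on the furan arrays and 8.75 to 9.08 on the vehicle arrays, and 0 of 10 passed. With 4 arrays in a group, precision is limited by their number.

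Glul, Rhbg and Slc1a2 handle ammonia, glutamate and glutamine. Glul encodes glutamine synthetase, which in liver is confined to the hepatocyte layers next to the central vein. Its level was 5.71, 5.85, 5.68 and 5.71 on the arrays of furan replicates 41, 42, 43 and 44, against 5.79, 6.06, 5.91 and 6.02 on those of vehicle replicates 2, 3, 4 and 6. Only furan replicate 42 and vehicle replicate 2 crossed, and the other 3 furan livers were below every vehicle liver. Glul averaged 5.74 ± 0.08 with furan and 5.94 ± 0.12 with vehicle (SD, n = 4 each), 0.865 times the vehicle level. The difference was -0.21 ± 0.09 (SE) with a 95% interval of -0.42 to 0.0050, which is not adjusted for the number of features, and limma gave an adjusted p of 0.217.

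Glul was the only one of the 10 called in the authors' deposited value table, whose log2 values were made by a method not given in the sources used here. There its values were 14.17, 14.40, 14.18 and 14.24 on the furan arrays and 14.64, 14.58, 14.62 and 14.60 on the vehicle arrays. The groups did not overlap, and the vehicle arrays lay within a narrow band. The same limma fit on that table gave a difference of -0.36 ± 0.08 (SE, 95% interval -0.54 to -0.18), with an adjusted p of 0.0310. Of all features, 6.71% were called there, and 2.24% were called lower with furan. Glul, Rhbg and Slc1a2 were the 3 of 10 genes without overlap between groups in it, as against 6.13% of all features with furan lower. With 1 array removed at a time, Glul passed in 2 of 8 fits. It passed without furan replicate 42 (limma adjusted p = 0.0341) and without vehicle replicate 2 (0.0427), and the adjusted p was 0.0872, 0.0856 and 0.0869 without furan replicates 41, 43 and 44 and 0.0774, 0.0684 and 0.0718 without vehicle replicates 3, 4 and 6.

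Rhbg encodes an ammonium transporter of the Rh glycoprotein family. It stood at 3.06, 3.03, 2.91 and 2.93 on the furan arrays in replicate order, against 3.20, 3.21, 3.14 and 3.28 on the vehicle arrays. Every furan liver was below every vehicle liver, which held for 1 of the 10 genes and for 7.36% of all features. The means were 2.98 ± 0.07 with furan and 3.20 ± 0.06 with vehicle (SD, n = 4 each). The difference of -0.22 ± 0.08 (SE, 95% interval -0.41 to -0.040) had an adjusted p of 0.147 in limma, and a 2-sided exact permutation test over the 70 splits gave 0.0286, the smallest value that 4 against 4 arrays allow. Of the 14 probes of the 10 genes tested in this way, the second Slc1a2 probe, described below, reached the same value. In the authors' value table the groups did not overlap either, with a difference of -0.30 and a limma adjusted p of 0.0742.

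Slc1a2, which encodes a high-affinity glutamate transporter, was read by 3 probes that passed the filter. The brightest gave 3.86, 3.96, 3.81 and 3.80 with furan and 3.90, 4.21, 4.03 and 4.43 with vehicle. Furan replicate 42 crossed vehicle replicate 2, and the SD was 0.07 among furan livers and 0.23 among vehicle livers (n = 4 each). The difference was -0.29 ± 0.13 (SE, 95% interval -0.58 to 0.0011, limma adjusted p = 0.211). The second probe, annotated to another transcript of the gene, gave -0.23, -0.15, -0.30 and -0.25 with furan and 0.25, 0.15, 0.19 and 0.64 with vehicle. These groups did not overlap, as was the case for 7.42% of the 33848 probes fitted each on its own.

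The difference of the second Slc1a2 probe was -0.54 ± 0.12 (SE), 0.689 times the vehicle level. Its adjusted p was 0.0626 in the limma fit of each probe, which called 3.33% of probes. It passed with a shift by the brightest 25% of genes (adjusted p = 0.0478), with only probes well above background on all 8 arrays (0.0376), with trend and robust moderation (0.0264) and with array weights (0.0372). It did not pass in the authors' value table (0.0519), with normexp (0.0525), quantile normalization (0.0750), no shift (0.266) or a median shift (0.943), with a block for the row (0.0805) or the column (0.180) of the slide, or in any of the 8 fits without 1 array, where the adjusted p ran from 0.0789 to 0.154. The third probe, which is dim, had a difference of -0.46 ± 0.17 (SE, adjusted p = 0.175), and its sign turned under quantile normalization (0.23). The mean of the 3 probes gave -0.43 (limma adjusted p = 0.0893).

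**Figure D2:**
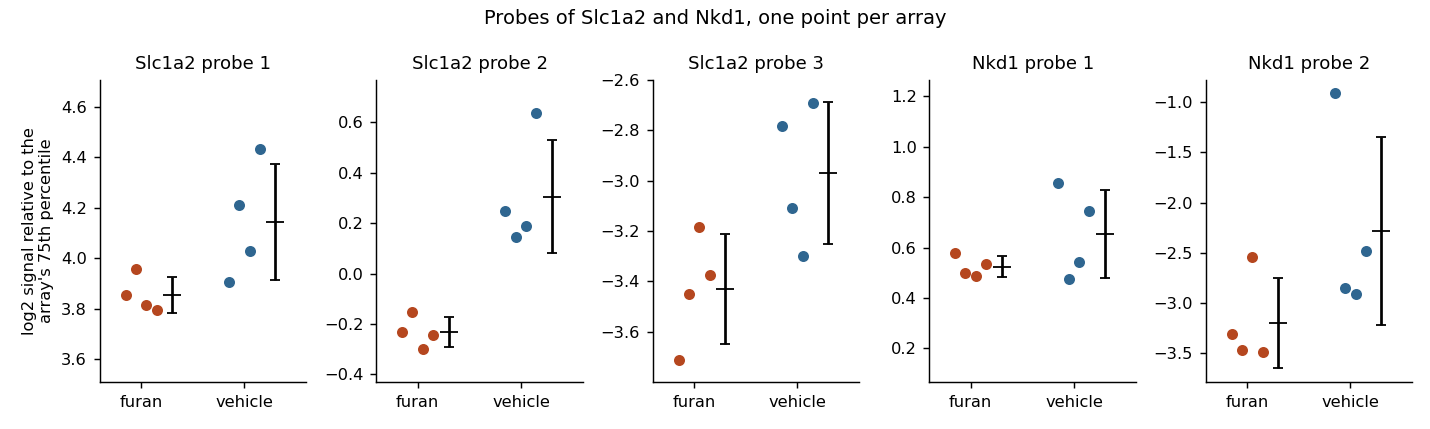
Log2 signal relative to the array's 75th percentile for the 3 probes of Slc1a2 and the 2 probes of Nkd1 that passed the filter, 1 point per array, furan left and vehicle right, with means ± SD (n = 4 arrays) and each panel on its own axis. The groups separate on Slc1a2 probe 2 (furan -0.30 to -0.15, vehicle 0.15 to 0.64), and vehicle replicate 2 stands alone at -0.91 on Nkd1 probe 2.

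The promoter of Slc1a2 is shown because it is one of 2 member promoters that hold the T-cell factor motif searched for. The motifs were CTTTGAT and CTTTGAA on either strand, in the 250 bases before a start site. Of the 10 genes 6 had entries in the RefSeq promoter table for build GRCm38.p6, 7 start sites in all, and 2 of the 7 held a motif, against 7.48% of all 32851 entries. The entry for Slc1a2 lies at chr2:102706188-102706437 on the plus strand, with the match in capitals, CTTTGAT read on the opposite strand, beginning 207 bases before the start:
Slc1a2: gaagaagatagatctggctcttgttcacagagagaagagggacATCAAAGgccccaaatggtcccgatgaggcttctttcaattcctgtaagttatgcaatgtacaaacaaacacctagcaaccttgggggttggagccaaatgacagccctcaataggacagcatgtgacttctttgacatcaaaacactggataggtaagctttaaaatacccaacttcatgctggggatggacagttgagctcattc
Glul, Axin2, Nkd1 and both Rnf43 entries had no match in this window. A match is a description of letters and not a bound site.

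Lgr5, Rnf43 and Znrf3 set how strongly a hepatocyte senses Wnt. Lgr5 is a receptor for R-spondins, which remove the membrane ubiquitin ligases Rnf43 and Znrf3, and these ligases otherwise clear Frizzled receptors from the cell surface. Lgr5 was at 0.26, 0.61, 0.10 and -0.06 with furan and 0.57, 0.49, 0.17 and 0.62 with vehicle. The groups overlapped, furan replicate 42 being next to the highest vehicle livers. Its difference was -0.23 ± 0.17 (SE, 95% interval -0.62 to 0.16, limma adjusted p = 0.397).

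Rnf43 was at 3.22, 3.13, 3.20 and 2.93 with furan and 3.14, 3.05, 3.15 and 3.62 with vehicle, a difference of -0.12 ± 0.14 (SE, 95% interval -0.45 to 0.21, limma adjusted p = 0.594). The groups overlapped apart from the high value of vehicle replicate 6, and without that array the difference was 0.0050. Znrf3 was at -1.04, -0.84, -0.73 and -1.13 with furan and -0.20, -1.06, -1.18 and -0.53 with vehicle. All 4 furan values lay within the vehicle range. The Znrf3 difference of -0.20 ± 0.23 (SE, 95% interval -0.72 to 0.33, limma adjusted p = 0.584) was -0.016 without vehicle replicate 2.

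Axin2 and Nkd1 are feedback inhibitors that Wnt signalling induces against itself. Axin2 is a scaffold of the complex that degrades beta-catenin, and Nkd1 binds Dishevelled. The Axin2 probe was dim, well above background on 1 of 4 furan arrays (replicate 43) and on 4 of 4 vehicle arrays. The probe thus passed the filter only through the vehicle group, the group in which its mean was higher. It gave -4.40, -4.38, -3.61 and -4.98 with furan and -2.02, -3.72, -3.99 and -3.77 with vehicle. Vehicle replicate 2 was far above the other livers, and furan replicate 43 crossed the remaining vehicle values. The difference, the largest of the 10, was -0.96 ± 0.47 (SE, 95% interval -2.06 to 0.13, limma adjusted p = 0.254). Without vehicle replicate 2 it was -0.51 (adjusted p = 0.336), with normexp background correction and quantile normalization -0.057 (0.718), and in the authors' value table -0.13 (0.439). The other Axin2 probe was not well above background on any array.

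The brighter Nkd1 probe gave 0.58, 0.50, 0.49 and 0.53 with furan and 0.86, 0.48, 0.54 and 0.74 with vehicle. The furan livers were close together and lay inside the vehicle range. Its difference was -0.13 ± 0.10 (SE, 95% interval -0.37 to 0.11, limma adjusted p = 0.435), and -0.064 without vehicle replicate 2. The dimmer probe of Nkd1 gave -0.92 ± 0.46 (SE, adjusted p = 0.276), and -0.46 (0.337) without vehicle replicate 2, whose value of -0.91 stood above the -2.92 to -2.48 of the other vehicle livers.

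Sp5 and Tbx3 are transcription factors downstream of Wnt. Sp5, a zinc finger factor, was at 1.04, 0.68, 0.44 and 0.09 with furan and 1.01, 0.58, 0.66 and 0.40 with vehicle. Tbx3, a T-box repressor that marks pericentral hepatocytes, was at 4.50, 4.27, 3.72 and 3.36 with furan and 4.23, 3.89, 3.92 and 4.22 with vehicle. In both genes furan replicate 41 was the highest liver of all and furan replicate 44 the lowest. The differences were -0.10 ± 0.22 for Sp5 (SE, 95% interval -0.61 to 0.41, limma adjusted p = 0.779) and -0.10 ± 0.25 for Tbx3 (SE, 95% interval -0.68 to 0.48, adjusted p = 0.806). Without furan replicate 44 the signs turned, to 0.058 for Sp5 and 0.10 for Tbx3. The Sp5 sign turned in 2 of the 8 fits without 1 array, the other being that without vehicle replicate 2.

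The Sp5 promoter holds the motif CTTTGAT on the gene's own strand. Its entry lies at chr2:70474673-70474922 on the plus strand of GRCm38.p6, and the capitals mark the match, which begins 104 bases before the start:
Sp5: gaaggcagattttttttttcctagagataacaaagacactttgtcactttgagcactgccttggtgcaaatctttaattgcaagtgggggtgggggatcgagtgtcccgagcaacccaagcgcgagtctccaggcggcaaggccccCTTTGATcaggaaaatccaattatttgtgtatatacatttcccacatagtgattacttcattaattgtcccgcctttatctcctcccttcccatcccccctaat
Lgr5, Znrf3, Tbx3 and Rhbg are named here without promoters.

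**Figure D3:**
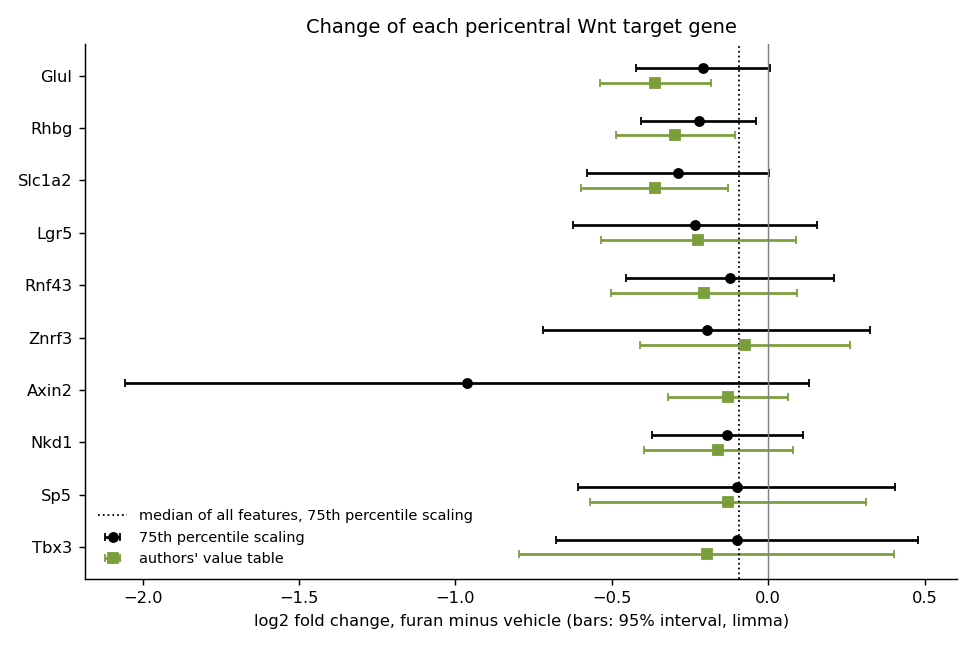
Log2 fold change, furan minus vehicle, of each of the 10 genes with its 95% interval from limma, in the 75th percentile scaling (black circles) and in the authors' value table (green squares). The dotted line is the median of all features in the 75th percentile scaling, -0.092. With black circles the interval of Rhbg alone does not reach 0, and with green squares those of Glul, Rhbg and Slc1a2 do not.

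Apart from Axin2, the intervals of the 10 genes reached no lower than -0.72 and no higher than 0.48. The slide held the arrays in 2 rows and 4 columns, and each row held 2 furan and 2 vehicle arrays. In the row with furan replicates 43 and 44 and vehicle replicates 2 and 6, which holds the array with the most spots above background, all 10 differences were below 0, with a median of -0.40, against 58.8% of all features and their median of -0.097. In the row with furan replicates 41 and 42 and vehicle replicates 3 and 4, 4 of 10 were below 0, with a median of 0.049, against 56.4% of all features and their median of -0.053. Those 4 were Glul, Rhbg, Slc1a2 and Axin2, whose differences in the 2 rows were -0.22 and -0.20, -0.32 and -0.13, -0.36 and -0.21, and -1.39 and -0.53. The Axin2 probe passed the filter only through the vehicle arrays. Each column held 1 furan and 1 vehicle array, and Glul, Rhbg, Slc1a2 and Lgr5 were lower in the furan array of all 4 columns, as were 16.1% of all features. With the row as a block 0 of 10 passed in limma, the lowest adjusted p being 0.171, and with the column as a block 0 of 10 did, the lowest being 0.274.

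**Figure D4:**
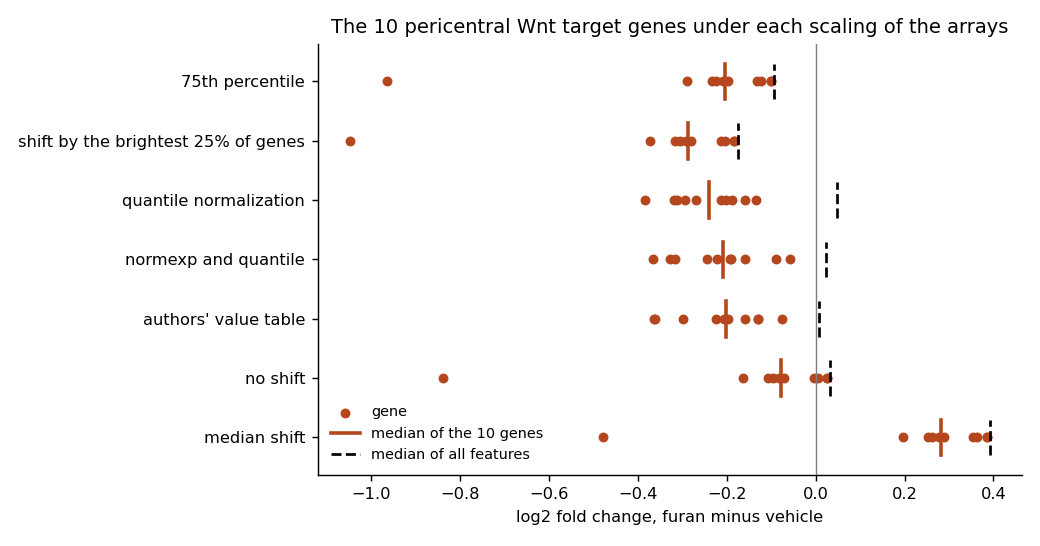
Log2 fold change, furan minus vehicle, of the 10 genes (points) with their median (solid line) and the median of all features (dashed line) under 7 ways of scaling the arrays. The 10 genes lie to the left of the dashed line in each of the 7 rows. Rows that differ only in the shift (percentile, median, none or brightest genes) move every gene of an array by the same amount. These rows therefore repeat the same offset between the medians, -0.11, and are not separate checks of it. The position of the 10 genes relative to 0 turns with the median shift. There the median of all features is 0.39 and that of the 10 genes 0.28.

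Because a shift of each array moves every gene, the changes were also read against the median of all features. Under the median shift that median was 0.39, and without any shift it was 0.034. The median of the 10 genes minus that of all features was -0.11 in the 75th percentile scaling, -0.29 under quantile normalization, -0.23 with normexp and -0.21 in the authors' value table. Of the 10, Axin2 entered through a probe that passed the filter only by the vehicle arrays. All 10 genes were below the median of all features in these 4 scalings. Without the filter on dim probes, where the median of all features was -0.24, 2 of 10 were, and the difference of the medians was 0.040. Without furan replicate 44 it was -0.044, with 7 of 10 below, and without vehicle replicate 2 it was -0.11, with 6 of 10 below. No test was made of this offset. In the authors' value table other hepatocyte lists had medians near the -0.20 of the 10 genes, where that of all features was 0.0085. They were -0.21 for hepatocyte markers, -0.23 for other pericentral genes and -0.20 for periportal genes. In the 75th percentile scaling these medians were -0.087, -0.11 and -0.079, against -0.20 for the 10 genes.

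The genes whose profiles over the 8 arrays were most like that of Glul, among 14210 with an ordinary symbol, were Rsph4a (Pearson r = 0.98), Acvr2b (0.97) and Gys1 (0.97). For Axin2 they were Itga3 (0.99), Cd101 (0.99) and Olfr975 (0.99), and without vehicle replicate 2 these coefficients were 0.99, 0.98 and 0.96. None of these 6 genes passed the test between the groups, and neither did Glul and Axin2, to which they were matched. The coefficients over all arrays describe 8 points that share arrays and groups.

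The cells that supply the Wnt signal were read through central vein endothelial markers, of which 0 of 6 passed (median log2 fold change 0.020). Rspo3, the R-spondin made there, was at 0.75, 0.61, 0.96 and 0.62 with furan and 0.80, 0.68, 0.62 and 0.71 with vehicle, with a difference of 0.030 ± 0.10 (SE, limma adjusted p = 0.863). The ligand gene Wnt9b had a difference of 0.11 ± 0.10 (adjusted p = 0.482). Wnt2 had one of -0.86 ± 0.43 (adjusted p = 0.265), with vehicle replicate 2 at -1.72 against -3.92 to -2.93 in the other vehicle livers, and without that array the difference was -0.43 (adjusted p = 0.319). Cdh13, a cadherin gene, was lower in every furan liver than in any vehicle liver, as were 7.36% of all features. It did not pass (-0.36 ± 0.12, adjusted p = 0.133), and its nearest values were 0.12 in furan replicate 41 and 0.14 in vehicle replicate 3. Sinusoidal endothelial markers had 0 of 16 past the threshold and a median of -0.19, with mean levels over the list of 2.15 to 2.34 on furan arrays and 2.34 to 2.60 on vehicle arrays. The leading values were those of the adhesion gene Pecam1 (-0.39, adjusted p = 0.0550) and the receptor gene Tek (-0.35, 0.0630). The part of endothelial content in the values of the 10 genes was not tested.

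The rest of the pathway was read by role. Of 12 measured Wnt ligand and secretion genes 0 passed (median -0.24), the smallest adjusted p being that of Porcn, the acyltransferase that lipidates Wnts (-0.45 ± 0.12, 0.0712), followed by Wnt11 (-0.53, 0.138). Of 4 R-spondin and Lgr genes other than Lgr5 0 passed (median 0.069), with Lgr6 at -0.48 (0.404) and Lgr4 at 0.11 (0.561). The Lgr6 probe was dim, well above background on 1 of 4 furan arrays and 3 of 4 vehicle arrays. Of 12 Frizzled receptors and co-receptors 0 passed (median 0.025). Among them the receptor genes Fzd8 and Fzd5 had differences of -0.92 ± 0.21 (adjusted p = 0.0530) and -0.66 ± 0.27 (0.190). Of this list, 2 genes were called higher and 1 lower in the authors' value table. Of 8 measured Wnt inhibitors 0 passed (median -0.31), with the Wnt deacylase gene Notum at -0.45 ± 0.13 (adjusted p = 0.0988) and Sostdc1 at -0.38 ± 0.16 (0.200), and 1 was lower in the authors' value table.

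Inside the cell, 0 of 19 transducers and members of the beta-catenin destruction complex passed (median 0.0091). The kinase gene Gsk3b had a difference of 0.36 ± 0.12 (limma adjusted p = 0.129). Ctnnb1, which encodes beta-catenin, was at 3.19, 3.07, 3.15 and 3.12 with furan and 2.73, 2.99, 2.79 and 2.96 with vehicle. Its groups did not overlap, as in 10.8% of all features with furan higher, and the difference of 0.27 ± 0.09 did not pass (adjusted p = 0.133).

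Of 13 T-cell factors, coactivators and corepressors 2 rose and 1 fell, and the median was 0.10. The corepressor gene Tle1 rose by 0.65 ± 0.11 (limma adjusted p = 0.0226), with 4.37, 4.39, 4.28 and 4.02 on furan arrays against 3.47, 3.67, 3.62 and 3.68 on vehicle arrays. The corepressor gene Tle2 fell by 0.74 ± 0.12 (adjusted p = 0.0234), with 2.61, 2.73, 2.47 and 2.77 on furan arrays against 3.09, 3.48, 3.45 and 3.51 on vehicle arrays. The 2 corepressor genes moved in opposite directions, each with no overlap between groups. Such separation held for 10.8% of all features with furan higher and 7.36% with furan lower. The other Tle2 probe also passed (-0.83), and of the other 2 Tle1 probes 1 passed (0.62) and 1 did not (0.38, adjusted p = 0.160). Cdc73, a transcription elongation factor gene that can bind beta-catenin, rose by 0.64 ± 0.13 (adjusted p = 0.0364). The Tle1 call held in 2 of the 8 fits without 1 array, those without furan replicate 44 and without vehicle replicate 2, and the Tle2 and Cdc73 calls held in 1, that without vehicle replicate 2. Of 6 other scalings, the authors' value table among them, Tle1 passed in 5, Tle2 in 4 and Cdc73 in 2. With a median shift none of the 3 passed (Tle1 1.14, adjusted p = 0.436; Tle2 -0.25, 0.742; Cdc73 1.12, 0.425), and in the authors' value table all 3 did (0.57, -0.77 and 0.63). Tcf7l2, the main T-cell factor of hepatocytes, had a difference of 0.10 ± 0.10 (adjusted p = 0.532). The other Tcf7l2 probe gave -0.11 (adjusted p = 0.477 in the limma fit of each probe).

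**Figure D5:**
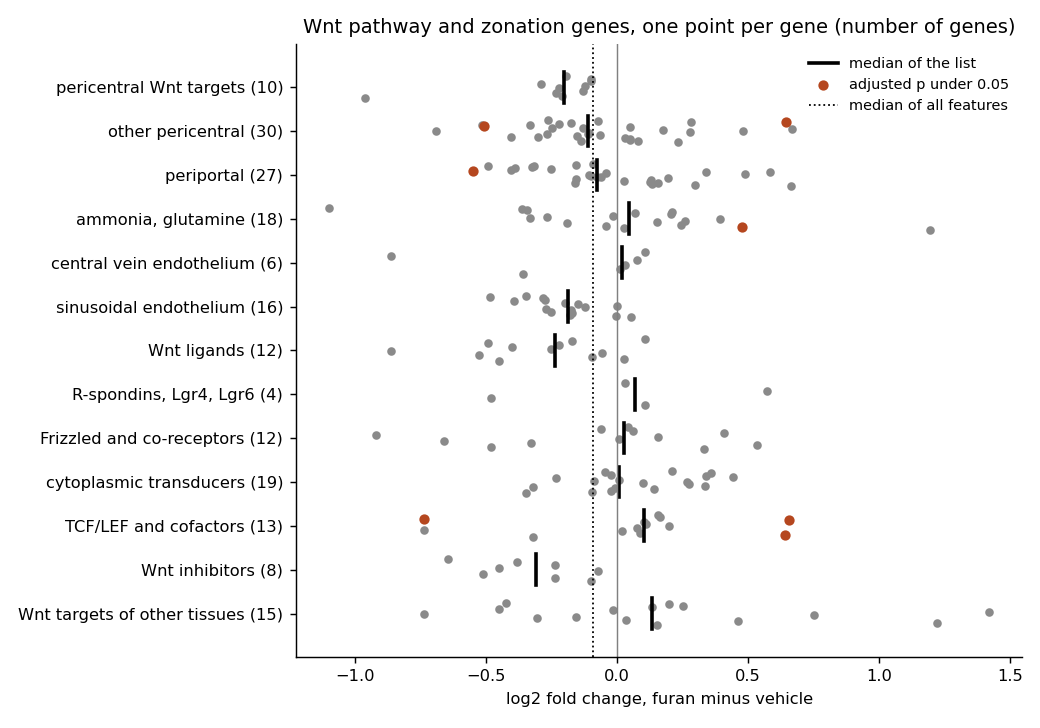
Log2 fold change, furan minus vehicle, of each measured gene of 13 lists, 1 point per gene, with the number of genes in brackets, the median of each list as a bar and genes past an adjusted p of 0.05 in red. The 10 pericentral Wnt targets have no red point and a median of -0.20, and TCF/LEF and cofactors have 3 red points.

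Zonation markers outside the 10 genes showed few calls. Of 30 other pericentral genes 1 rose and 1 fell, with a median of -0.11. Slc13a3, a dicarboxylate transporter gene, rose by 0.64 ± 0.13 (limma adjusted p = 0.0394) and the phosphatase gene Lhpp fell by 0.51 ± 0.10 (0.0409). The Slc13a3 call held in 1 of the 8 fits without 1 array, that without furan replicate 41, and the Lhpp call in 0 of 8, and each passed in 2 of the 6 other scalings. Cyp2e1 stood at 9.69, 10.04, 9.79 and 9.79 with furan and 9.64, 10.03, 9.91 and 10.16 with vehicle. Its groups overlapped, and the difference of -0.11 ± 0.13 (adjusted p = 0.615) was -0.42 with the other probe of the gene (0.0730). The cytochrome P450 gene Cyp1a2 had -0.40 ± 0.20 (0.252), and Oat, which converts ornithine towards glutamate, -0.33 ± 0.19 (0.304). Of 27 periportal genes 0 rose and 1 fell, with a median of -0.079. That gene, the steroid dehydrogenase gene Hsd17b6, fell by 0.55 ± 0.09 (adjusted p = 0.0199), and of the fits with 1 array removed it passed in that without vehicle replicate 2 alone, and of the 6 other scalings in 4. The urea cycle gene Otc had a difference of -0.39 ± 0.09 and did not pass (adjusted p = 0.0569). The authors' value table, with 6.71% of all features called, had 1 of the other pericentral genes higher and 5 lower (median -0.23). Of the periportal genes it had 1 higher and 3 lower (median -0.20).

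Among 18 other genes of ammonia, glutamate and glutamine handling, 1 rose and 0 fell (median 0.047). Asns, the asparagine synthetase gene, had a difference of 1.19 ± 0.30 and did not pass (adjusted p = 0.0648), and the authors' value table had 2 genes of this list higher and 2 lower. Of 15 Wnt targets described in other tissues 0 passed (median 0.13), led by the survivin gene Birc5 (1.22, adjusted p = 0.0538) and the Id protein gene Id2 (0.75, 0.0539). Of these, 2 were called higher and 1 lower in the authors' value table.

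Markers of other cell types were read the same way. Of bile duct markers 1 of 8 rose (median 0.038), the membrane glycoprotein gene Prom1 by 1.15 ± 0.15 (limma adjusted p = 0.0124), a call that held in each of the 8 fits without 1 array although the other probe gave 0.66 and did not pass (0.261). Prom1 passed in 5 of the 6 other scalings and did not with a median shift (adjusted p = 0.106). Of 11 stellate cell and fibroblast markers 0 passed (median 0.077), with the collagen genes Col3a1 and Col1a1 at 0.37 (0.126) and 0.51 (0.149). Of 12 Kupffer cell and leukocyte markers 0 passed (median -0.12), with Cd79a and Ptprc at -0.41 (0.172) and -0.28 (0.463). The leading hepatocyte markers were Hnf4a (0.31, 0.0859) and Apoa1 (-0.20, 0.355).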

How the data were processed

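Per the file headers, the authors' scanner files give for each spot an intensity in 1 colour and a background-subtracted processed intensity, made by Agilent Feature Extraction 11.0.1.1 for array design 028005. A value table deposited by the authors holds log2 values. Across probes these correlated with log2 median spot intensities at 0.998 to 1.00, its column medians were 6.53 to 6.74, and its scaling and centring stay unknown.

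Control spots (3671 of 62976 on each array) and outlier-marked spots (128 to 315) were left out, and 0 spots were saturated. Log2 processed intensity was shifted by each array's 75th percentile. Probes well above background on at least 4 of 8 arrays were kept (33848 of 55681), and the brightest represented each gene. Symbols came from RefSeq accessions (assembly GRCm38.p6), which named 27235 of 28685 such probes. Of the 24921 features 15070 had a symbol. Groups were compared in R 4.3.3 with limma 3.58.1 (lmFit, eBayes) and 1 group term, since the labels do not say which animals share a block, 2-sided with Benjamini-Hochberg adjustment over all features. All 10 members had a kept probe, 13 of their 14 probes were kept, and no value was missing.

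The members and the 16 other lists were chosen with earlier results of these data known. Of each list up to 4 called genes, or the 2 with the smallest adjusted p, are named, with 8 genes named whatever their p. Of the genes this rule picks, 2 are not reported here. Lists are described by counts and medians and were not tested. Alternatives, some on single probes and on Glul in the value table added after seeing the data, were other scalings, background correction, filters, probe rules, moderation, weights, slide blocks, arrays left out and thresholds. The fit was tested on simulated data. Figures used Python 3.11.15 and matplotlib 3.10.9. Arrays are separate animals by their labels.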

Additional observations from a re-analysis of the deposited data

Results flagged for a closer look

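On the Axin2 probe the array of vehicle replicate 2, at -2.02, stood apart from the other 3 vehicle arrays, at -3.99 to -3.72, with a gap to its neighbour of 0.865 of the range of the group, above Dixon's 95% critical value for 4 samples. This was 1 of the 26 groups of 4 looked at over 13 probes, and chance alone flags about 1 in 20. The same array was also the highest vehicle array on both Nkd1 probes, Znrf3, Sp5 and Tbx3, and the lowest on Glul and the brightest Slc1a2 probe. Its share of spots well above background was the highest, 86.2%, against 55.1% to 69.4% on the other 7. The part of that share in the Axin2 value was not tested.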

How the results depend on the processing

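No paired analysis was possible because the replicate numbers of the furan and vehicle animals are not shared and the labels do not say which animals share a block. The slide column, a position that holds 1 array of each group, was fitted as a block in its place, with the counts below. The count of 0 of 10 genes past the threshold in limma was 1 in the authors' value table (Glul, -0.36, adjusted p = 0.0310) and 1 at an unadjusted p under 0.05 (Rhbg, -0.22), and 0 under the other 23 alternatives, the 8 fits without 1 array among them. With a median shift the median of the 10 became 0.28, and the signs turned for Glul (0.28), Lgr5 (0.25), Tbx3 (0.38), Nkd1 (0.35), Rnf43 (0.36), Znrf3 (0.29), Rhbg (0.26), Slc1a2 (0.20) and Sp5 (0.38). Without a shift they turned for Tbx3 (0.025), Rnf43 (0.0045) and Sp5 (0.025), and with array weights for Sp5 (0.011). Without 1 array the ranges were -0.28 to 0.10 for Tbx3, -0.26 to 0.058 for Sp5, -0.18 to 0.0050 for Rnf43, -0.25 to -0.13 for the median of the 10, and 195 to 927 for all features called. The third Slc1a2 probe turned to 0.23 with quantile normalization, 0.026 with a median shift and 0.010 with normexp.

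All features called numbered 1041, and 86 with a median shift, 261 without a shift, 1671 in the authors' value table, 163 without the filter, 1733 with the filter on all 8 arrays, 2001 with trend and robust, 2068 with array weights, 0 with the slide column as a block (limma, where 4723 features and 0 of the 10 genes had an unadjusted p under 0.05), 101 at 0.01 and 5931 at an unadjusted 0.05. Genes called over the 16 other lists numbered 8, and 0 with a median shift, 3 without a shift, 14 with the shift by the brightest 25%, 21 with normexp, 25 in the authors' value table, 1 without the filter, 22 with the filter on all 8 arrays, and 1 to 9 without 1 array. The causes of these moves were not tested. Fewer features are tested with the stricter filter, and fewer arrays enter when 1 is left out. Axin2 had no probe under the stricter filter. Weak signal over background limits Axin2, whose probe was well above background on 5 of 8 arrays. The dimmer probes of Nkd1 and Slc1a2 were well above background on all 8 arrays.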
